A study of Mus musculus with 30 samples.

Results

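The macrophages of the newborn female mouse hypothalamus were followed through 10 marker genes, 4 that mark macrophages at the borders of the brain (Lyve1, Mrc1, Cd163 and F13a1) and 6 that mark microglia or are shared by both kinds of cell (Cx3cr1, P2ry12, Csf1r, C1qa, C1qb and Aif1). All probe sets whose annotated symbol is one of these genes were taken, which gave the 10 genes among 18193 annotated ones and 16 of 45037 probe sets, 5 of border genes and 11 of microglia and shared genes. C57BL/6J females received estradiol benzoate (EB, 7.5 μg) or peanut oil alone on the day of birth, and the whole hypothalamus was collected after 1, 3, 6, 12 or 24 h. There were 3 EB and 3 oil animals at each time, 1 array for each animal and 30 arrays in all. EB is an ester of estradiol that is released slowly from oil. The animals were of 1 inbred strain, and no transgene or surgery was described for them. Every animal, the oil controls included, had an injection at birth. The labels call the 3 arrays of a group biological replicates.

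Microglia are the macrophages inside the brain tissue. They derive from yolk sac precursors, depend on the receptor Csf1r for survival, and sense neurons through Cx3cr1 and injured cells through P2ry12. Border macrophages lie outside the tissue proper, in the leptomeninges (the thin membranes on the brain surface), in the sheaths around vessels and in the choroid plexus. They share Csf1r and the complement genes with microglia, but carry scavenger and matrix receptors such as Mrc1, Cd163 and Lyve1, and they are bathed in cerebrospinal fluid among the fibroblasts of the membranes. A hypothalamus dissected whole brings some of this surface with it.

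In the whole tissue a lower signal from fewer cells of a type cannot be told apart from less RNA in each cell. Signals are given as scaled signal, the deposited intensity after every array was set to a common median of 41.3, and differences are log2 fold changes of EB over oil from limma, fitted to 27022 probe sets with Benjamini-Hochberg adjustment. A probe set was called where the adjusted p was under 0.05. Signals of different probe sets have no common scale and were not compared with each other. Of the 16 probe sets 15 passed the filter on dim probe sets. The one that did not was the second of Cx3cr1, at 0.721 to 16.3 on the 30 arrays. All 12 pan-neuronal markers measured passed the filter too, and no marker of the hypothalamus in particular was set against the label. Medians of the deposited arrays ran between 28.0 and 66.9. They were 52.9 to 66.9 in the arrays of 12 h and 28.0 to 44.1 in those of the other times.

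Macrophage genes are typically switched on through PU.1, a factor that binds purine-rich DNA, and the start regions of Mrc1 and F13a1, which fell, are shown for that reason, with the one of C1qb beside them for comparison. Each is the stretch of RefSeq (build GRCm38.p6) that reaches from 250 bases before the start of transcription to 50 bases after it, written 5′ to 3′ on the strand of the gene. Capitals mark the letters GAGGAA, a short purine core, or TTCCTC, the same letters on the other strand.
Mrc1, chr2:14229164-14229463, plus strand: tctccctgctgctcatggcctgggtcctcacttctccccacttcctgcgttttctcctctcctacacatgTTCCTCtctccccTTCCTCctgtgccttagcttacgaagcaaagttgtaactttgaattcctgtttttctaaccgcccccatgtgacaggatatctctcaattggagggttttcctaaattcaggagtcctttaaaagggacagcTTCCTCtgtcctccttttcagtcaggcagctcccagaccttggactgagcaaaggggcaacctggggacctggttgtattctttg
F13a1, first start, chr13:37050195-37050494, minus strand: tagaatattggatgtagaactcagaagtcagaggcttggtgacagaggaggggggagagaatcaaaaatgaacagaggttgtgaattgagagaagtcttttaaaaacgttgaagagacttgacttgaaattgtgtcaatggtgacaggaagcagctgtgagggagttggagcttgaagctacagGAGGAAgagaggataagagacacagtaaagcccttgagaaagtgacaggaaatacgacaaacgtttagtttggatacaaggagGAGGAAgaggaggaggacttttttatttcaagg
F13a1, second start, chr13:37049164-37049463, minus strand: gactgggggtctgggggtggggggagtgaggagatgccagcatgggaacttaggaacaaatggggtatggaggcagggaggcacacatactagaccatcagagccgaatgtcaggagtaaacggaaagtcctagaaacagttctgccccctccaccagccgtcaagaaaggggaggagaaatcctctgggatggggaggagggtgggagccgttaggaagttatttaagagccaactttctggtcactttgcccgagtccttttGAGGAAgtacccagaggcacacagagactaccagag
C1qb, chr4:136886151-136886450, minus strand: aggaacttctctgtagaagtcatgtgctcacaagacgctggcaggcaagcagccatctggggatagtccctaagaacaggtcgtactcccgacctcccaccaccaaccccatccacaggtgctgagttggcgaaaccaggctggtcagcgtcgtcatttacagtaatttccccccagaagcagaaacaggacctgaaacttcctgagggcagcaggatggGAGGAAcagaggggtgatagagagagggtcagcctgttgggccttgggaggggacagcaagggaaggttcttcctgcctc
Used here were 8 start regions of 7 of the 10 genes, and Lyve1, C1qa and Csf1r were not among them. The core stood 3 times in the Mrc1 region and in 5 of the 8 member regions, while 28.3% of all 32851 regions of this length hold it. The longer form GAGGAAGT, which contains that core, stood in 1 of the 8, the second start of F13a1, against 3.2% of all regions. It is written there as GAGGAAgt. The palindrome of the estrogen response element (GGTCA, 3 free bases, TGACC) was found in 0 of the 8, and in 0.07% of all regions. Both strands were searched. These matches describe letters only, and the regions of Mrc1 and F13a1, which fell, and of C1qb, which was not called, all held the core. The region of Aif1 held it as well, while those of the border gene Cd163 and of Cx3cr1 and P2ry12 did not.

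The question of the study was what estrogen changes in the newborn female hypothalamus over the first day, and at 24 h the border and the microglia genes parted. Of the 15 probe sets tested, 4 were lower in EB-treated animals than in oil-treated ones and 0 were higher. Among all probe sets at 24 h, 2.19% were lower and 0.588% were higher. The 4 were both probe sets of Lyve1, the one of Mrc1 and the one of F13a1. None of the 10 probe sets of the microglia and shared genes was called. At the unadjusted 0.05 level there were 5 lower, the fifth being Cd163, and 0 higher, beside 9.67% lower and 6% higher among all. The methods' test, run on the deposited signals without scaling, called 0 of the 15 at 24 h, and in a limma fit of the 6 arrays of 24 h alone the dimmer probe set of Lyve1 was not called (adjusted p 0.055).

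Lyve1 encodes a receptor for the matrix sugar hyaluronan, carried by border macrophages and by lymphatic vessels. Its brighter probe set (1429379_at) read 0.83, 1.45 and 19.7 in the 3 EB animals at 24 h, against 70.8, 41.6 and 64.3 in the 3 oil animals. Every EB animal was below every oil animal, and the third EB animal had more signal than the other two. The log2 fold change was -4.23 (SE 0.61, adjusted p 0.000245 from limma), with a 95% interval from -5.47 to -2.99. The lowest EB value was under the limit of 1 at which signals were cut, so the size of this change depends on how low signals are treated, and it was -1.75 (adjusted p 0.00112 from limma) after 16 was added to each signal. The second probe set of Lyve1 (1453128_at) gave 1.01, 7.27 and 8.23 in EB animals and 44.1, 19.6 and 28.2 in oil animals, a log2 fold change of -2.89 (SE 0.52, adjusted p 0.0019 from limma). Both probe sets thus placed the EB group below the oil group with no overlap, as 14.3% of all probe sets did at 24 h. Without EB animal 3 the fold change of the first probe set was -5.58, and without EB animal 1 that of the second was -1.91. Both probe sets were called in all 6 fits that left out 1 array of 24 h.

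F13a1 encodes the A chain of coagulation factor XIII, which cross-links fibrin and which macrophages make. Its signal (1448929_at) was 7.12, 16.6 and 32.8 in EB animals, against 103, 57.6 and 102 in oil animals. The highest EB animal was well below the lowest oil animal. The log2 fold change was -2.43 (SE 0.40, adjusted p 0.00086 from limma), a 5.39-fold lower signal with a 95% interval from -3.25 to -1.61 on the log2 scale.

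Mrc1, the mannose receptor CD206, takes up glycoproteins from the fluid around the cell. Its probe set (1450430_at) read 26.7, 20.6 and 40.3 in EB animals, and 101, 89.8 and 82.8 in oil animals. The oil animals were close together, and the EB animals lay well below them. The log2 fold change was -1.69 (SE 0.29, adjusted p 0.0012 from limma), which is 3.23-fold lower.

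Cd163, the scavenger receptor for haemoglobin bound to haptoglobin, was dim at 24 h in both groups. Its values (1419144_at) were 3.78, 8.96 and 6.6 in EB animals and 20.3, 12.4 and 12 in oil animals. The groups did not overlap, but the difference of -1.25 (SE 0.40) missed the threshold with an adjusted p of 0.0945 from limma. With weights for array quality it was called at -1.25 and an adjusted p of 0.029. Its interval ran from -2.08 to -0.43.

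The microglia genes stood otherwise. Cx3cr1, the receptor for the neuronal chemokine fractalkine, read 98.7, 95.9 and 87.3 in EB animals and 102, 89.8 and 64 in oil animals at 24 h. These ranges overlap, and the difference was 0.16 (SE 0.25, adjusted p 0.82 from limma; 95% interval from -0.35 to 0.68). P2ry12, the ADP receptor that steers microglial processes to damage and marks microglia among brain macrophages, had 41.9, 56 and 46.2 in EB animals against 34.4, 46.5 and 38.9 in oil animals. The difference was 0.27 (SE 0.35, adjusted p 0.78 from limma), with an interval from -0.46 to 0.99 that leaves room for a change of either sign.

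Csf1r, the receptor for Csf1 and Il34 on which both kinds of macrophage depend, was measured with 3 probe sets. The brightest read 366, 387 and 364 in EB animals, and 415, 403 and 383 in oil animals, with a difference of -0.10 (SE 0.15) and an interval from -0.41 to 0.20. The other two probe sets gave 0.04 and -0.29. C1qa and C1qb encode chains of C1q, the first component of complement, which tags synapses and debris. C1qa was 128, 143 and 125 in EB animals and 127, 130 and 127 in oil animals and differed by 0.04 (SE 0.15; interval from -0.26 to 0.35). The 3 probe sets of C1qb gave -0.05, -0.26 and 0.21, and the names of the last 2 mark them as able to bind other transcripts. Names that end in s_at, as for the only probe set of Aif1 and the second of Csf1r, mark probes shared by several transcripts. Aif1, the actin-binding protein Iba1 used to stain microglia, differed by -0.05 (SE 0.31; interval from -0.68 to 0.58). Across the 6 genes the log2 fold changes ran from -0.10 to 0.27 with 3 above and 3 below 0, and none of the intervals of these 6 probe sets reached the -1.69 of Mrc1. Without scaling of the arrays the median over all probe sets moved by 0.23 at 24 h, and the signs of Csf1r, C1qb and Aif1 turned with it.

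**Figure D1:**
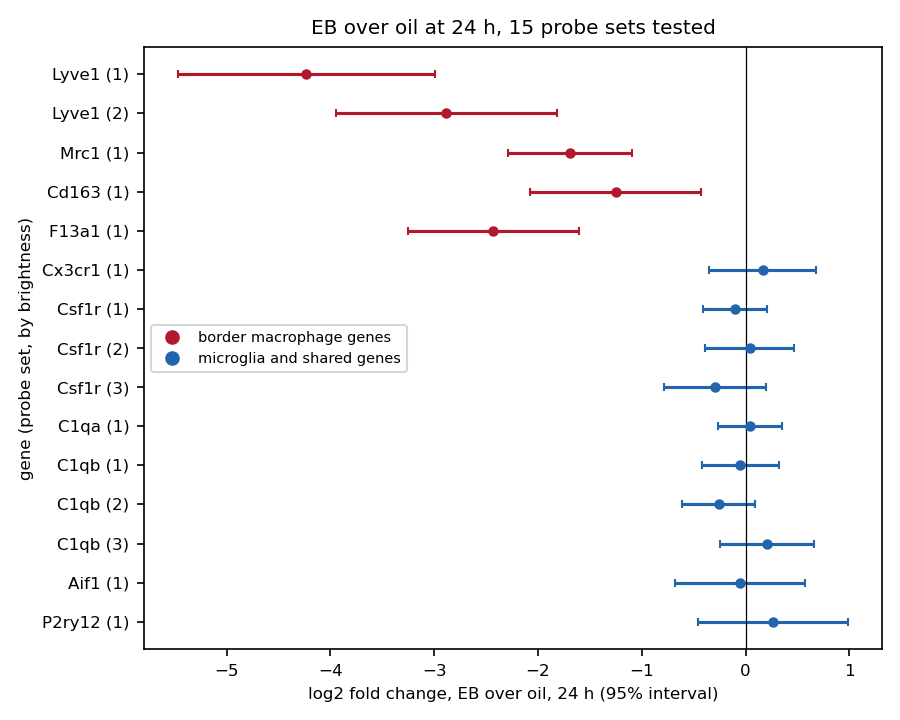
Log2 fold change of EB over oil at 24 h (x axis) for the 15 probe sets tested (y axis, numbered by brightness within a gene), with 95% intervals from limma, 3 EB and 3 oil arrays. All 5 border probe sets (red) lie below 0, between -4.23 and -1.25, while the 10 microglia and shared probe sets (blue) have intervals that include 0.

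Taking the brightest probe set of each gene, the median log2 fold change at 24 h was -2.06 over the 4 border genes and -0.0036 over the 6 microglia and shared genes, beside a median of -0.010 for the 27022 tested. The mean of the border genes minus that of the microglia genes, taken in each animal after every gene was centred on its mean, was -3.47, -3.04 and -1.60 in EB animals and 0.01, -0.61 and -0.18 in oil animals. The EB animals were all below the oil animals, and the third EB animal was again the nearest to them. The mean fold change of the border genes minus that of the microglia genes was -2.45, and -1.30 after 16 was added to each signal.

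At the earlier times no probe set of the 10 genes was called in either direction. The share of all probe sets called was low at these times as well. It was 0.0037% lower and 0% higher at 1 h, 0.377% lower and 0.0962% higher at 3 h, and 0% in both directions at 6 and 12 h. Unadjusted, 7 member probe sets were higher and 0 lower at 1 h, 1 and 1 at 3 h, 0 and 1 at 6 h, and 1 and 0 at 12 h. Among all probe sets the unadjusted shares were 5.37% higher and 3.26% lower at 1 h, 8.2% and 4.59% at 3 h, 3.93% and 2.08% at 6 h, and 3.16% and 3.4% at 12 h.

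At 1 h the brightest probe sets of all 10 genes had positive fold changes, from 0.29 for P2ry12 to 0.89 for Cd163, with a median of 0.51 over border and 0.54 over microglia and shared genes and 0.025 over all those tested. In 7 of the 15 probe sets every EB animal was above every oil animal, where 10.5% of all probe sets were. Csf1r had 484, 388 and 508 in EB animals at 1 h, against 292, 280 and 322 in oil animals. The groups were apart, and the difference was 0.62 (SE 0.15), but the adjusted p was 0.178 from limma. C1qa had 181, 143 and 192 in EB animals and 139, 95.6 and 109 in oil animals, with a difference of 0.59 (SE 0.15, adjusted p 0.22 from limma). The mean of the 25 leptomeningeal genes described further on lay between 0.107 and 0.571 in the EB arrays at 1 h, and between -0.316 and 0.247 in the oil arrays, and its part in these values was not tested.

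At 3 and 6 h all 4 border genes had negative differences and at 12 h positive ones, none of them called. The 4 medians of the border genes before 24 h were 0.51, -0.47, -0.66 and 0.42 at 1, 3, 6 and 12 h, and those of the microglia and shared genes were 0.54, 0.093, -0.28 and 0.30. P2ry12 at 3 h was the lowest member of the second group, at 17, 15.4 and 19.9 in EB animals and 35.1, 21.5 and 32.5 in oil animals, a difference of -0.75 (SE 0.35, adjusted p 0.37 from limma). All 3 EB animals were below the oil animals there.

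**Figure D2:**
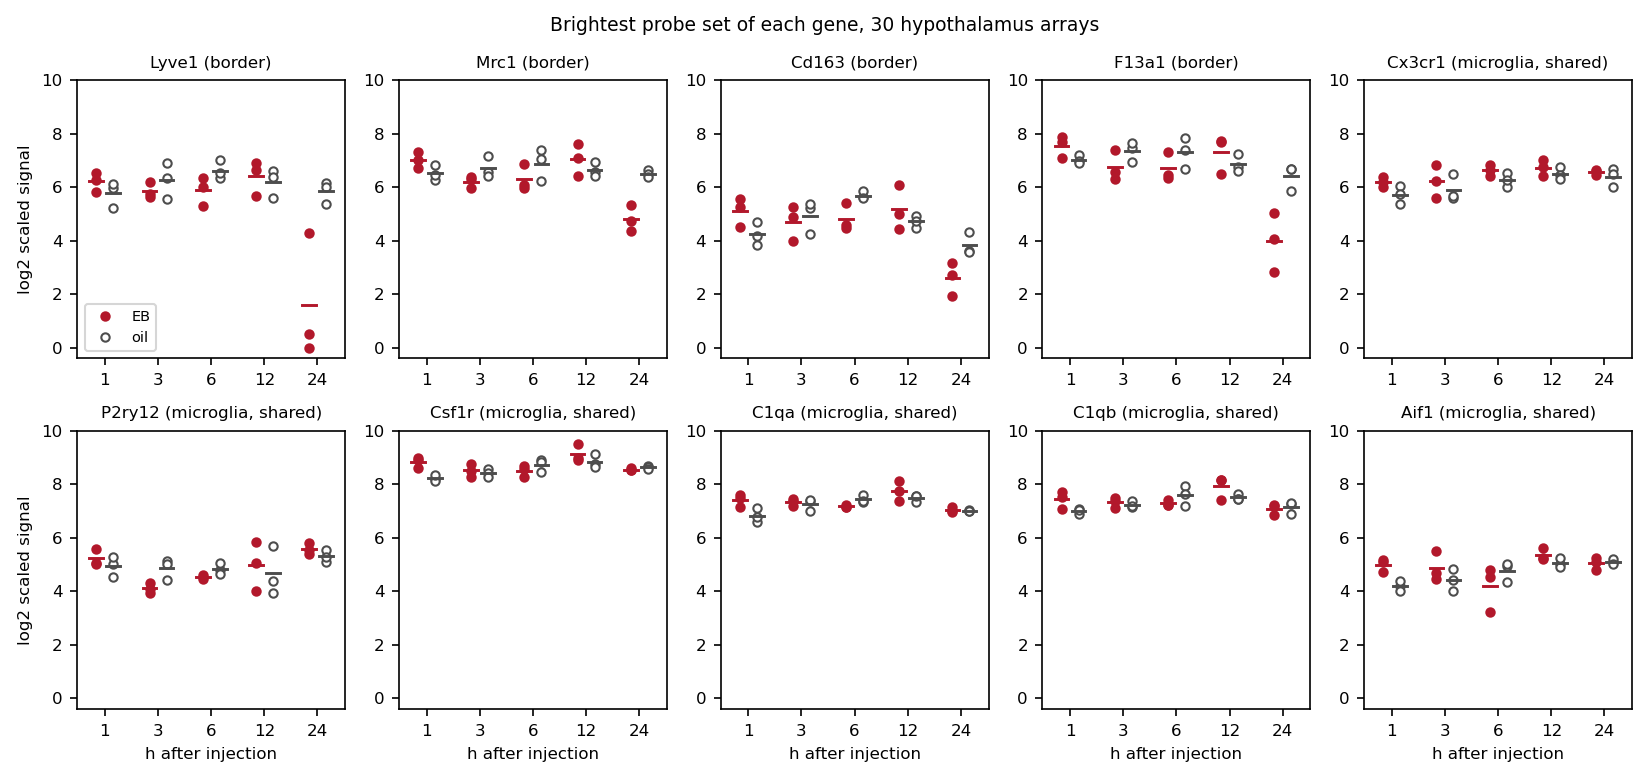
Log2 scaled signal (y axis) of the brightest probe set of each of the 10 genes by time in h from injection (x axis), with EB animals as filled points left of oil animals as open points, 3 each, and group means as bars. The EB animals at 24 h lie below all other animals for Lyve1, Mrc1, Cd163 and F13a1, and among the others for Csf1r, C1qa and Aif1.

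The 24 h group of EB was the lowest of the 10 groups for all 4 border genes. Lyve1 averaged 7.33 ± 10.7 there (SD, n = 3), and the other 9 groups had means from 56.9 to 99.8, with the lowest single animal at 37.7. Mrc1 averaged 29.2 ± 10.1 in that group, and 74.4 to 139 in the others. F13a1 averaged 18.8 ± 13, against 87.6 to 192 in the others. Cd163 averaged 6.45 ± 2.59, and 14.9 to 51.6 in the others, where the lowest of these means belonged to the oil group of 24 h. The highest EB animal at 24 h stayed below the lowest of the other 27 animals for each of these genes, at 8.96 against 12.0 for Cd163 and at 40.3 against 62.6 for Mrc1. Among the other 9 groups neighbours in this order lay within the spread of their animals. For the microglia genes the same group took other places in the order, the highest of 10 for P2ry12 and the second lowest for C1qb. Csf1r averaged 372 ± 12.7 in it, where the other groups ran up from 298 in oil at 1 h to 573 in EB at 12 h, and these were also the lowest and the highest group of Cx3cr1, C1qa and C1qb. Their animals did not overlap at those ends, and neighbours in the order did. All arrays of 12 h also had higher deposited medians than the arrays of the other times.

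Whether the effect of EB differed between times was tested directly. The EB effect at 24 h minus the mean EB effect at 1 to 12 h was called for 4 of 15 probe sets, all lower, against 2.48% lower and 0.389% higher among all. It was -4.10 (SE 0.68, adjusted p 0.00081) and -2.86 (SE 0.58, adjusted p 0.0051) for the 2 probe sets of Lyve1, -1.65 (SE 0.32, adjusted p 0.0041) for Mrc1 and -2.37 (SE 0.45, adjusted p 0.0029) for F13a1, all from limma. For Cd163 it was -1.31 (SE 0.45, adjusted p 0.12 from limma). An F test over the 5 effects called the same 4 probe sets, where 0.958% of all were called, and it did not call C1qa (adjusted p 0.145), whose EB animals were all above the oil animals at 1 h and all below them at 6 h. Averaged over the 5 times, the EB effect called 0 of the 15, against 0.0555% lower and 0.0185% higher among all, with 4 lower and 4 higher before adjustment, where 3.31% and 5.36% of all were.

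In oil animals alone, the members changed with time about as often as other genes. Time in oil was called by an F test for 6 of the 15 probe sets, against 34.1% of all probe sets. They were Cd163, 2 probe sets of Csf1r, C1qa and 2 of C1qb. Between 24 h and 1 h in oil 0 of 15 were called, against 1.8% lower and 4.93% higher, though all 6 microglia and shared genes had positive differences, from 0.15 for C1qb to 0.92 for Aif1 (adjusted p 0.068 for Aif1 from limma). The adjusted p of this F test was 0.71 for Lyve1, 0.74 for Mrc1 and 0.25 for F13a1. Time in these groups holds age, hour of the day, time from the injection and the intensity of the deposited arrays, which was highest at 12 h. These cannot be told apart.

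Other genes of the same cells were taken from lists written for this comparison, with earlier results of these data known. Of 20 further markers of border macrophages all were measured, 8 passed the filter, and 2 of these fell at 24 h, with 0 higher and a median of -0.92 over the 8. Where no filter was set, 1 of the 20 was called and the median over the 20 was -0.58. The dim genes that the filter had left out went in both directions there. They ran from -2.27 for Mgl2 to 1.14 for Wfdc17, with Ms4a7 at -1.23 and Folr2 at 0.54, and none of them was called. Pf4, a platelet chemokine that border macrophages also make, was 16.2, 12 and 48.2 in EB animals and 113, 104 and 151 in oil animals, with all EB animals below the oil animals. It differed by -2.53 (SE 0.32, adjusted p 4.0e-05 from limma). Dab2, an endocytic adaptor, was 33.7, 82.4 and 77.3 in EB animals against 122, 116 and 120 in oil animals. Its difference of -0.99 (SE 0.27, adjusted p 0.041 from limma) was not called without EB animal 1 (-0.58, adjusted p 0.34) or without any 1 of the oil animals (adjusted p 0.10 to 0.13). Not called were the scavenger receptor Stab1 at -0.74, Ms4a6b at -1.02, Ms4a6c at -0.86, the lectin Fcna at -0.997, Igfbp4 at -0.47 and the iron exporter Slc40a1 at -0.09.

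Of 16 further microglia markers 13 were measured, 7 passed the filter and 0 were called at 24 h. Their median was -0.13, and they ran from -0.66 to 0.38. The mean of the 7, each gene centred, was -0.28, -0.17 and -0.10 in EB animals and -0.004, -0.008 and -0.082 in oil animals. All EB animals were thus below the oil animals in this mean, though by little. Tmem119, a surface protein of microglia, was at -0.07, Siglech at -0.12, and Sall1, a transcription factor that keeps microglial identity, at 0.38. Of 22 genes shared by macrophages 17 passed the filter and 0 were called, with a median of -0.17. Among them were the third C1q chain C1qc at -0.19, the lysosomal Cd68 at -0.22, the adaptor Tyrobp at -0.10, and Adgre1, which encodes F4/80, at -0.05.

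Of the 12 genes for ligands and factors that feed macrophages, 8 passed the filter and 1 was lower. Csf1 and Il34, the ligands of Csf1r, were at 0.13 and -0.25, and Cx3cl1, the ligand of Cx3cr1, was at -0.11, none of them called. Cxcl12, a chemokine of the membranes and vessels, was 45.5, 35.4 and 113 in EB animals and 225, 209 and 167 in oil animals. It fell by 1.81 on the log2 scale (SE 0.37, adjusted p 0.0048 from limma), and it was not called without EB animal 2 (-1.47, adjusted p 0.062).

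Markers of the fibroblasts of the leptomeninges moved with the border genes. This list too was written with earlier results of these data known. Of 26 such genes 25 were measured and all 25 passed the filter. At 24 h 23 of these were lower and 0 higher, with a median of -2.11. Among all probe sets 2.19% were lower and 0.588% higher. The mean of the 25, each gene centred, was -3.17, -3.23 and -0.74 in the 3 EB animals, against 0.14, 0.01 and -0.13 in the 3 oil animals. EB animal 3 was nearest to the oil animals here as it was for Lyve1, Mrc1, F13a1 and Pf4. For Cd163 and Dab2 the nearest was EB animal 2. The largest changes were those of Fmod, a matrix proteoglycan, at -5.53 (adjusted p 0.00073 from limma), Ptgds, a prostaglandin D synthase that carries lipids in cerebrospinal fluid, at -4.17 (adjusted p 0.00025 from limma), Osr1, a transcription factor, at -3.82 (adjusted p 0.0012 from limma) and Slc6a13, a GABA and taurine transporter, at -3.65 (adjusted p 0.00073 from limma). None of the 25 was called at 1, 3, 6 or 12 h. How much of these membranes each dissection held was not measured, and its part in the fall of the border genes was not tested.

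**Figure D3:**
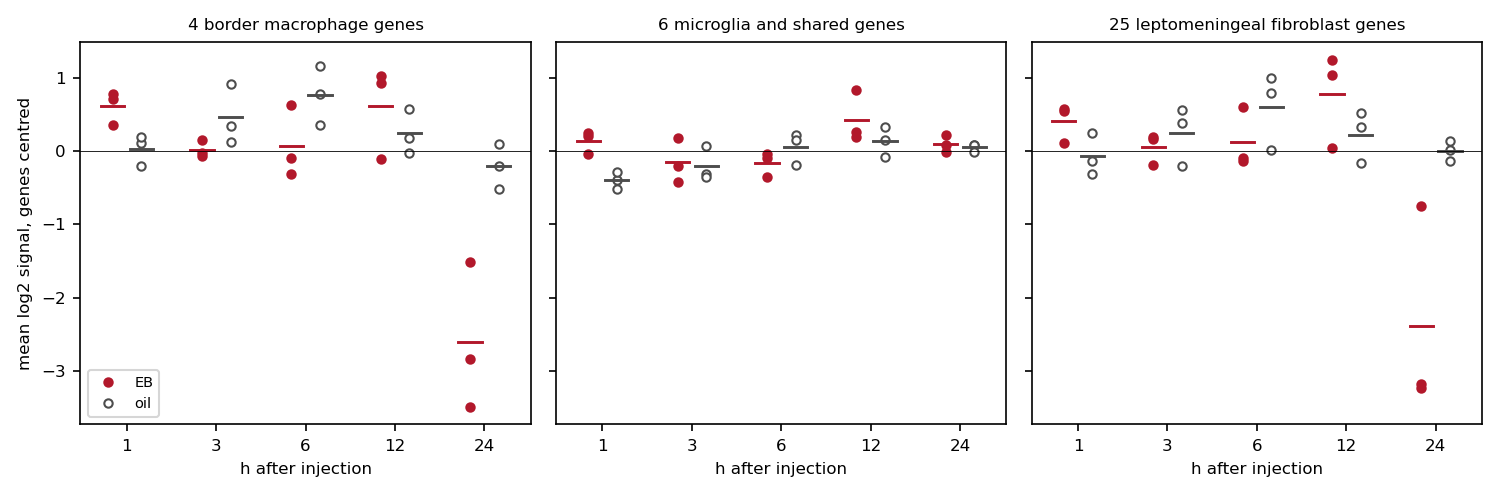
Mean log2 scaled signal of the 4 border genes, the 6 microglia and shared genes and the 25 leptomeningeal genes, every gene centred on its mean over 30 arrays (y axis), by h after injection (x axis), with EB animals filled and left of oil animals, and bars for group means. At 24 h the EB animals are at -3.49, -2.83 and -1.51 for border genes and between -0.01 and 0.21 for microglia and shared genes.

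Outside the EB group of 24 h, and in oil animals alone, border genes and membrane genes also went together from animal to animal, and so did some of the shared genes. Over the 27 arrays without the EB group of 24 h, the mean of the border genes had a Pearson r of 0.87 and a Spearman rho of 0.80 with the mean of the leptomeningeal genes, and r was 0.85 without the 2 arrays farthest out. Over the 15 oil arrays r was 0.82 and rho 0.71, and r was 0.66 without the 2 farthest. The mean of the microglia and shared genes gave an r of 0.68 over the 27 arrays and 0.55 over the 15, or 0.56 and 0.39 without the 2 farthest. Gene by gene over the 27 arrays, r was 0.88 for Mrc1, 0.76 for F13a1, 0.67 for Lyve1 and 0.64 for Cd163, and it was as high for shared genes, 0.83 for C1qb, 0.76 for C1qa and 0.70 for Csf1r. It was 0.53 for Aif1, 0.31 for Cx3cr1 and 0.13 for P2ry12. These are descriptions over arrays that share times, dissection and scale, and no p is given for them.

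**Figure D4:**
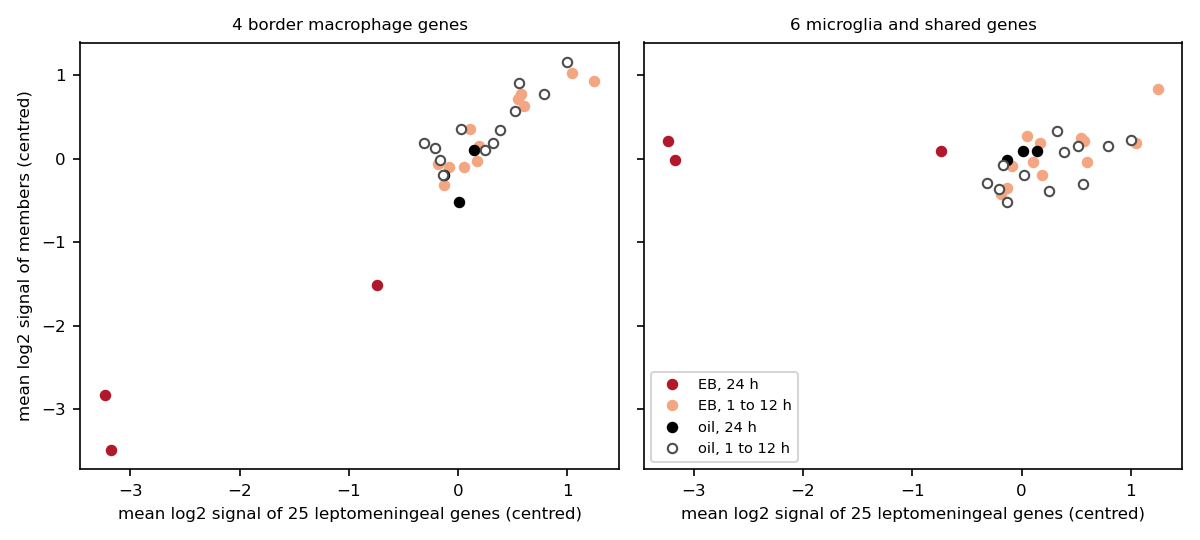
Mean centred log2 signal of the 4 border genes (left) and the 6 microglia and shared genes (right) on the y axis against that of 25 leptomeningeal genes on the x axis, 1 point for each of 30 arrays. The EB arrays of 24 h reach -3.23 on the x axis and -3.49 on the y axis of the left panel, and stay between -0.01 and 0.21 on the y axis of the right panel.

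Other cells that could bring these genes gave the following. Of the markers of lymphatic endothelium, which also carries Lyve1, 5 passed the filter and 0 were called, with Prox1, the factor that sets lymphatic identity, at -0.02 and Flt4 at -0.22. Endothelial markers had 0 of 13 called and a median of -0.14, and mural cell markers 0 of 8 with a median of -0.23. The mean of the endothelial genes, each centred, was -0.419, -0.373 and -0.248 in EB animals and -0.087, -0.240 and -0.095 in oil animals. All EB animals were just below the oil animals in it, and for the mural mean the groups overlapped. Choroid plexus markers had 0 of 5 called and a median of 0.006, with Kcnj13 the lowest at -1.60 (adjusted p 0.064 from limma). Their mean, each gene centred, was -0.69, -0.70 and -0.29 in EB animals against -0.22, -0.28 and -0.23 in oil animals. All EB animals were below the oil animals in this mean, the nearest by little, while the median fold change was just above 0. Without EB animal 3, a fit added after seeing the data, 1 of 5 choroid plexus and 1 of 8 mural cell markers were lower. The only mast cell marker that passed the filter was at -0.38 and the only monocyte and neutrophil marker at -0.71, neither called. The only red cell gene that passed, Hba-a2 for the alpha chain of haemoglobin, whose probes may also bind its near-identical copy, was higher by 1.05 (adjusted p 0.014 from limma). Where no filter was set, 1 of the 6 red cell genes measured was higher and 0 were lower. The median over these 6 was -0.56. Of 12 pan-neuronal genes 1 was lower, Stmn2 at -0.32 (adjusted p 0.0089 from limma), which was not called with no scaling (-0.096) or with quantile normalization, where its sign turned (0.047).

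The genes most like Lyve1 over the 30 arrays, among 12378 genes compared by Pearson r, were Fmod, Pf4, Col3a1, Slc6a13, Ptgds, Aldh1a2, Foxc2 and Col1a2, with r between 0.94 and 0.96. Of these, r without the 3 EB arrays of 24 h was highest for Pf4, at 0.73, and lowest for Ptgds, at 0.23. Those most like Mrc1 were Igf2, Islr, Lepr, Lgals1, Vtn, Cxcl12, Fn1 and Col1a2, at 0.94 to 0.95, and at 0.82 to 0.87 without these arrays. Csf1r had a different set, Tm4sf1, Gulp1, Rnase4, Sparc, Bola3, Myh9, Ifitm2 and Anxa5, at 0.80 to 0.85, and at 0.81 to 0.86 without these arrays. Among the border genes, Lyve1 had an r of 0.87 with Mrc1 and of 0.90 with F13a1 over the 30 arrays, against 0.43 with C1qb, 0.35 with C1qa and 0.22 with Csf1r. Without the EB group of 24 h these were closer to each other, at 0.67 with Mrc1, 0.56 with Cd163, 0.55 with F13a1, 0.54 with C1qb, 0.50 with C1qa and 0.43 with Csf1r.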

How the data were processed

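RNA of the whole hypothalamus of single newborn females was hybridised to Affymetrix GeneChip arrays of the mouse genome. The values deposited by the authors are linear intensity signals made with MAS5, whose version and scaling were not stated. Array medians from 28.0 to 66.9 show that they are not on one scale. No column was left without a sample (0 columns). Genes were named from the platform's annotation, where 34945 probe sets had 1 symbol, 932 several and 9160 none.

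Arrays were scaled to the mean of their medians, signals under 1 were set to 1, and log2 was taken. Left out were 64 control probe sets and then the dimmest 40%. The model, made in R 4.3.3 with limma 3.58.1, held all 30 arrays in 10 groups, with moderated variances that follow the mean (20 residual degrees of freedom) and Benjamini-Hochberg adjustment over 27022 probe sets. The fit was tested on simulated data. MAS5 detection calls were not used here. With 3 against 3 arrays an exact permutation test cannot go below 0.1, so no such test is given. The number of arrays limits the precision.

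The members and gene lists were chosen with earlier results of these data known. All probe sets of members were described. From each list up to 4 called genes with the largest change at 24 h, and every called border or microglia marker, were named by rule, and the other list genes were named after their values were seen. A gene in a list stands by its brightest probe set. The alternatives were no scaling, quantile normalization, 16 added to signals, no filter, array weights, the replicate number as a block, the 6 arrays of a time alone, other probe sets, other choices of member genes, leaving out each array, and the methods' test on deposited signals with Bonferroni adjustment over times. The same test with Benjamini-Hochberg adjustment, and the lists without EB animal 3, were added after seeing the data. Start regions came from RefSeq tables.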

Additional observations from a re-analysis of the deposited data

Results flagged for a closer look

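The effect of EB at 24 h differed from its mean effect at 1 to 12 h, by limma's test of that difference, for 3 of the 4 border macrophage genes. The difference was -4.10 and -2.86 for the 2 probe sets of Lyve1, -1.65 for Mrc1 and -2.37 for F13a1. It was -2.54 for Pf4 (adjusted p 0.00025), -1.12 for Dab2 (adjusted p 0.038) and -1.86 for Cxcl12 (adjusted p 0.0090). Among leptomeningeal genes named above it was -5.69 for Fmod, -3.75 for Slc6a13, -3.88 for Osr1 and -4.32 for Ptgds (adjusted p 0.00047 to 0.0030). It was 1.05 for Hba-a2 (adjusted p 0.027) and -0.36 for Stmn2 (adjusted p 0.0075), whose effect at 24 h was not called with no scaling or with quantile normalization.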

How the results depend on the processing

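Both probe sets of Lyve1, Mrc1 and F13a1 were lower and called at 24 h under every setting of the limma fit run, arrays of 24 h left out in turn included, except that the dimmer probe set of Lyve1 had an adjusted p of 0.055 from the 6 arrays of 24 h alone. They were not called by the methods' test on the deposited linear signals, which called 0 member probe sets at 24 h, both with Bonferroni adjustment over the times and with Benjamini-Hochberg adjustment over probe sets (the second added after seeing the data). There Lyve1 gave -2.88 (adjusted p 0.48 and 0.51), Mrc1 -1.42 (0.74 and 0.55) and F13a1 -2.07 (0.82 and 0.56). These signals are unscaled, and over all probe sets that test called 13 lower and 708 higher with Bonferroni, and 0 lower and 1 higher with Benjamini-Hochberg.

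Array weights called Cd163 at 24 h (-1.25, adjusted p 0.029), 1 of 15 member probe sets as higher at 1 h (0.0925% of all were) and 4 as higher in oil between 24 h and 1 h (8.57% of all). Over all probe sets at 24 h, array weights called 1265 lower and 552 higher, no scaling 74 and 120, and quantile normalization 378 and 242, against 592 and 159. The list of leptomeningeal genes had 20 of 25 lower with no scaling and 25 without EB animal 3, and the further border markers had 1 and 3 of 8. Adding 16 to signals moved the border minus microglia difference of mean fold changes to -1.30, against -2.45.

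Leaving out 1 array at a time gave 0 to 1 member probe sets called for the averaged effect, the 1 without EB animal 3 of 24 h, and 0 to 1 in oil between 24 h and 1 h, the 1 without oil animal 1 of 1 h. The uncalled microglia genes near 0 changed sign. Csf1r was 0.12 with no scaling and 0.12 by the methods' test, and 0.038 for its second brightest probe set. C1qb was 0.18, 0.14 and, for its dimmest probe set, 0.21, and Aif1 was 0.17 and 0.17. Leaving out an array of 24 h gave -0.031 to 0.31 for Cx3cr1, -0.015 to 0.079 for C1qa, -0.18 to 0.063 for C1qb and -0.15 to 0.066 for Aif1.

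Replicate numbers were not treated as pairs of animals. Of 15 pairs with the same number, 0 had a correlation of deviations over 0.1 (-0.13 to 0.088). Yet 9 of 15 correlated best with their own number, every pair at 1 and 3 h among them, so weak pairing was not excluded. With the number as a block, 4 member probe sets were called at 24 h. Signals near the limit of 1, as in Lyve1 at 24 h, and a dim Cd163 limit the size of those changes.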
